A study of Mus musculus with 4 samples.

Results

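Among 33698 cells kept from 4 droplet libraries of mouse fracture callus, 104 carried transcripts of both Kit and Cd34 and stayed under set limits on a few RNAs of more mature blood cells. These are the cells described here. The gate kept a cell barcode with at least 200 genes and under 10% mitochondrial UMIs (unique molecular identifiers, each standing for 1 captured RNA). It then asked for at least 1 UMI of Kit and of Cd34, fewer than 20 UMIs in all of the neutrophil granule proteases Elane, Mpo, Prtn3 and Ctsg, and fewer than 3 in all of the mast cell and basophil proteases Mcpt8, Prss34 and Cpa3. Barcodes with any Cd79a or Cd3e, the B and T cell receptor subunits, or with 3 or more UMIs of Csf3r, the G-CSF receptor, were left out. The cells were thus chosen by the measured UMIs of these 12 genes, which are given below as a description and carry no test.

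Hematopoietic stem and progenitor cells renew the blood and branch into lymphoid, megakaryocyte, erythroid and myeloid lineages. Kit, the receptor for stem cell factor, and the surface sialomucin Cd34 are shared by many of these cells in mouse marrow, but also by mast cell precursors (Kit) and endothelium (Cd34). Stem and multipotent cells are further known by transcription factors such as Meis1, Hlf and Mecom, and lineage priming shows as Dntt in lymphoid, Pf4 in megakaryocyte and Gata1 in erythroid and megakaryocyte progenitors.

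The animals, male C57BL/6J mice, were 20 months of age with a fracture callus of the tibia, and calluses were taken 7 days after treatment with a microgel. In 2 libraries the microgel held adenosine (adenosine 1 and 2), and in the other 2 it was the control microgel without it (control 1 and 2). The tissue is given both as bone marrow and as callus, red cells were lysed and live cells then sorted with propidium iodide, and the labels do not say how many animals stand behind each library, so p-values measure only the spread between these libraries. The libraries held 9427, 6643, 8860 and 8768 kept cells in the order control 1, control 2, adenosine 1, adenosine 2, which is the order used throughout. Control 2 stood apart in the neighbouring cells too, with 12 cells above the granule protease limit against 314, 515 and 359 in the other libraries.

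The gate found 33, 16, 36 and 19 cells, which is 0.350%, 0.241%, 0.406% and 0.217% of kept cells. The 95% Wilson intervals, which cover counting error only, ran from 0.249% to 0.491% in control 1, 0.148% to 0.391% in control 2, 0.294% to 0.562% in adenosine 1 and 0.139% to 0.338% in adenosine 2. Both the highest and the lowest share belonged to an adenosine library, so the groups overlapped. The mean share was 0.295% (SD 0.0772, n = 2) in control and 0.312% (SD 0.134, n = 2) in adenosine libraries, a difference of 0.0161 percentage points (exact two-sided permutation test, p = 1; the smallest p that 2 against 2 libraries can give is 0.333). The sign of this small difference turned to -0.0385 without control 2 and to -0.0788 without adenosine 1. With at least 2 UMIs of both Kit and Cd34, the shares were 0.149%, 0.0602%, 0.237% and 0.171%, both adenosine libraries above both controls, and the difference was 0.0997 points (exact permutation test, p = 0.333). For cells with at least 2 of the 3 further markers described below, an alternative chosen after seeing the data, the shares were 0.308%, 0.0301%, 0.316% and 0.194%, which overlapped, with a difference of 0.0861 points.

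These were deep cells. Their median was 23306, 14764, 16589 and 16789 UMIs, against 3948, 3048, 3585 and 5082.5 over all kept cells of the same libraries. Since a cell with more UMIs is more likely to show both Kit and Cd34, the gate can miss shallow cells of the same kind. With every cell thinned to 2000 UMIs before gating, the difference between groups was -0.0444 percentage points. Free RNA can also give a UMI. Among cells with 3 or more Csf3r UMIs, 0.673%, 0%, 1.14% and 1.09% had a UMI of both Kit and Cd34. The median depth of this set was 2676 to 2832 UMIs by library. The 0 in control 2 was over 3234 cells, which allows a share of up to 0.0928%. The set was defined by Csf3r alone and can include cells above the granule protease limit. Of all cells above that limit, 88 of 314, 3 of 12, 271 of 515 and 111 of 359 had a Kit UMI. A Cd34 UMI was found in 69, 0, 127 and 77 of them. The shares are thus not a measure of free RNA alone, and its part in them was not tested. The doublet caller Scrublet scored each kept cell, and the highest scores were marked at a set rate of 0.8% per 1000 barcodes. This marked 4, 1, 2 and 5 of the gated cells, or 12.1%, 6.25%, 5.56% and 26.3%. Of all kept cells 7.96%, 5.40%, 7.52% and 7.33% were marked. No barcode was shared between gated cells of different libraries.

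The limits on the granule proteases fell in a sparse zone. Of cells that met every other limit, 2 had 15 to 19 granule UMIs (both in control 1), 1 had 20 to 24 (in adenosine 1), and 18, 0, 69 and 27 had 50 or more. In control 2, 14 of the 16 gated cells had none of the 4 proteases at all, against 4 of 33, 9 of 36 and 1 of 19 in the other libraries.

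The label of progenitors held in 3 libraries and not in control 2. Besides Kit and Cd34, the cells were to be known by Meis1, a homeobox factor of stem cells, Angpt1, the ligand of the Tek receptor, and Adgrl4, an adhesion receptor found in stem cells and endothelium. At least 2 of these 3 were detected in 29 of 33, 2 of 16, 28 of 36 and 17 of 19 cells, so 76 cells in all carried the marker set and 14 of the 16 control 2 cells did not. Summed over the gated cells and given as CPM, a gene's UMIs scaled to a total of 1000000 in each sum, Angpt1 was at 2704, 179, 1919 and 2101, Meis1 at 1250, 105, 1130 and 779, and Adgrl4 at 658, 440, 1144 and 959. All 3 were lowest in control 2. Kit stood at 270, 170, 338 and 270 CPM and Cd34 at 143, 205, 186 and 270 CPM. On a single Kit UMI passed 8, 4, 8 and 4 cells, and on a single Cd34 UMI 15, 10, 12 and 4. Depth differed little between the cells with and without the marker set, with medians of 16838.5 and 15341 UMIs. Results below are therefore given with and without control 2, and the 76 cells are used only to describe, since they were picked after their values were seen.

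**Figure D1:**
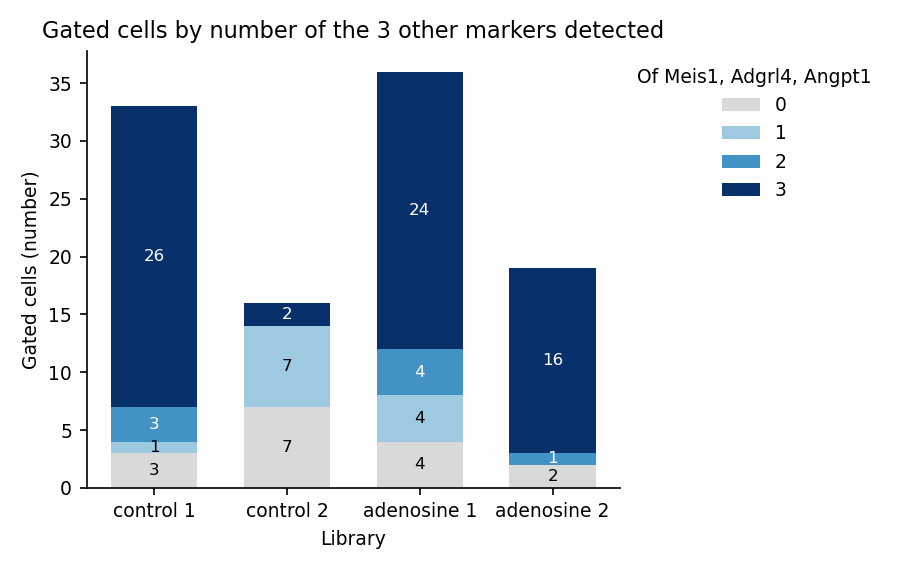
Number of gated cells in each library (bar height), split by how many of Meis1, Adgrl4 and Angpt1 had at least 1 UMI in the cell (shade, 0 to 3). All 3 were seen in 26, 24 and 16 cells of control 1, adenosine 1 and adenosine 2, and in 2 of the 16 cells of control 2.

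Clustering the 104 cells without the gate genes split them into 5 groups. No test is attached to these clusters, since they were drawn from the expression of the same cells. Cluster 1 (30 cells; 11, 1, 8 and 10 by library) had 8 of 40 stem and multipotent markers at 2-fold or more over the other gated cells, among them Hlf, Mecom, Prdm16 and Msi2. Its leading genes, however, were the neutrophil collagenase Mmp8 and Gem, Cnrip1 and Stxbp4, and 9 of 16 mature neutrophil genes were raised as well, so it was left unnamed. S100a8, a very abundant neutrophil RNA, had a UMI in 103 of all 104 gated cells, and its part in these cells as free RNA was not tested.

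Cluster 2 (18 cells, with 10, 0, 7 and 1 by library) had 10 of 23 erythroid and 7 of 23 megakaryocyte genes raised. It is called erythroid- and megakaryocyte-like, since its cells were not divided between these lineages. Gata1, the master factor of both lineages, was found in 17 of its 18 cells. The carbonic anhydrase Car1 averaged 523 CPM in the cluster against 2.77 CPM in the other gated cells, and the platelet chemokine Pf4 1595 CPM against 15.2. Car1 was seen in 6 of the 18 cells and Pf4 in 11, and the erythroid genes Ermap and Rhag, also among its leading genes, in 2 each. Among all gated cells with the marker set, Car1 was seen in 1, 0, 7 and 0 cells by library and Pf4 in 12, 1, 10 and 1. Cluster 4 (19 cells; 6, 1, 6 and 6) was lymphoid-primed-like, with 10 of 18 list genes raised. It held most cells with Dntt, the terminal transferase of early lymphoid cells, at 12 of 19 cells and 1402 CPM against 14.5, and Arpp21 and Cmah led it with Dntt.

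Cluster 5 (19 cells; 3, 12, 3 and 1) was dendritic cell-like. Ciita, the activator of MHC class II genes, was detected in 19 of its 19 cells at 456 CPM against 2.39 in the other gated cells, and Htr7, Klrb1b, Cxcl16 and Cd300c2 were among its leading genes. No cell of this cluster had a UMI of Adgrl4 or Angpt1, and 6 had Meis1. It held 12 of the 16 control 2 cells at each of the 3 clustering resolutions tried. Cluster 3 (18 cells; 3, 2, 12 and 1) mixed 2 kinds of cell and stayed unnamed. Its leading genes Ldb2, Cdh13, Cdh5 and Sparc came from 4 cells, of which 1, 2 and 1 were in control 1, control 2 and adenosine 1, and Cdh5 is the cadherin of endothelial junctions. At the same time 11 stem markers, among them Mecom, Mllt3, Fgd5 and Slamf1, were raised. Of the 16 cells of control 2, then, 12 sat in the dendritic cell-like cluster and 2 carried Cdh5.

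**Figure D2:**
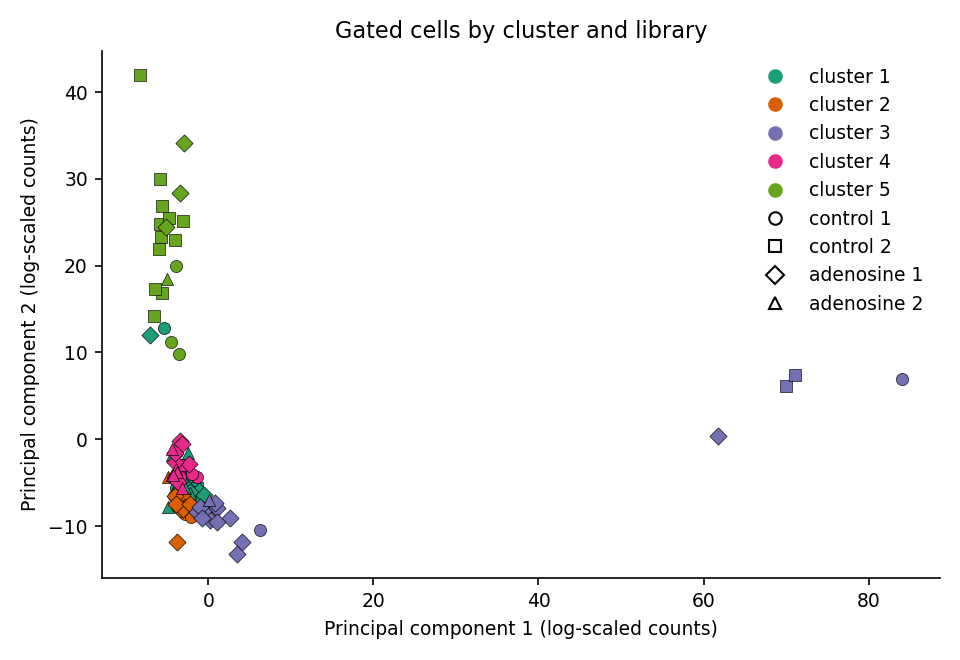
First 2 principal components of the log-scaled counts of the 104 gated cells (axes, no unit), coloured by cluster and shaped by library. Cluster 5, with 12 control 2 cells, lies along the upper left, and the 4 cells with Cdh5 stand far to the right of all others.

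Within the 76 cells that carried the marker set, stem genes were the common ground and lineage genes were carried by subsets. Mecom, a transcription factor needed by stem cells, had a UMI in 61 cells, Hlf in 58, and both in 54. Flt3, the receptor of multipotent and lymphoid-primed progenitors, was seen in 52 cells. Dntt was seen in 18 cells, of which 17 had Flt3, and Gata1 in 16 cells, of which 14 had Gata2 and 12 had Pf4. No cell had both Dntt and Gata1. A missing UMI does not show that a gene was off. Of the 28 other gated cells, 20 had Flt3, 1 had Hlf and 3 had Mecom.

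The lineage subsets were not spread evenly over libraries. Gata1 was found in 10, 0, 5 and 1 of the 29, 2, 28 and 17 cells with the marker set, and Pf4 in 12, 1, 10 and 1. Dntt was found in 4, 1, 8 and 5 of them. With 0 to 12 cells behind each count, these are descriptions of the libraries, and adenosine 2 had 1 cell with Gata1 and 1 with Pf4 while the other adenosine library had 5 and 10.

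The gated cells were set beside 1200 kept cells with 20 or more UMIs of the 4 granule proteases, whatever their Kit and Cd34, called granule-protease-high below. Their median depth was 18022 to 26864.5 UMIs by library, in the range of the gated cells for all libraries but control 2. Counts were summed per library and class and tested with edgeR's quasi-likelihood test, with the library as a block and Benjamini-Hochberg adjustment over all genes. At adjusted p under 0.05, 3901 of 9352 genes differed (41.7%), 1937 higher in the gated cells (20.7%) and 1964 lower (21.0%). Scaled by total counts alone in place of TMM, the split was 3251 higher and 1013 lower and the median over all genes moved from -0.02 to 0.37 on the log2 scale, so a modest difference depends on the scaling. Without control 2, 5214 of 11937 genes differed (43.7%), 20.4% higher and 23.3% lower. Genes that switch on together with the granule proteases had to be lower in the gated cells by the way the classes were chosen. Likewise, genes that go with Kit and Cd34 were likely to be higher in them.

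Most stem and multipotent genes tested were higher in the gated cells. The choice of cells on Kit and Cd34 makes this likely, so the counts that follow are a description. Of 40 genes on that list 37 passed the filter on low counts, 35 of them were higher and none lower, with a median log2 difference of 3.85 beside -0.02 over all genes tested. Setting aside Meis1, Adgrl4 and Angpt1, 32 of 34 were higher and none lower, and without control 2 it was 33 of 36 with 1 lower. The count was 32 of 34 both under total-count scaling and by DESeq2. Against the granule-protease-high cells that themselves had a Kit UMI, in the 3 libraries that held enough of them, 33 of 36 were higher and 1 lower. The granule-protease-high cells held 1946, 1016, 2375 and 2055 CPM of the 40 genes together, and the gated cells 15733, 4578, 14974 and 14182. Dendritic cell genes were higher in the same comparison, 10 of 14 with 1 lower (Irf8) and a median of 3.11, and 10 of 14 with a median of 2.93 without control 2. The part of the dendritic cell-like cells in the other differences was not tested. The 2 of the 37 tested stem genes that did not pass were Hoxb4 and Cd48, a surface protein of most leukocytes. Hoxb4 stood at log2 0.37 (SE 0.40) and Cd48 at -0.77 (SE 0.29).

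Mecom stood at 648, 392, 986 and 949 CPM in the gated cells and at 7.51, 0, 11.1 and 10.5 CPM in the granule-protease-high cells. Every gated sum lay above every granule-protease-high sum, and the log2 difference was 6.14 (SE 0.24). Hlf, a leucine zipper factor specific to early stem and progenitor cells, stood at 348, 30.5, 366 and 360 CPM against 9.27, 3.22, 15.2 and 8.89, a log2 difference of 4.62 (SE 0.23). Msi2, an RNA-binding regulator of stem cell renewal, stood at 1131, 183, 1323 and 1030 CPM against 54.8, 12.9, 76.4 and 52.0. For all 3 genes the classes did not overlap, and control 2 was the lowest of the gated sums. In control 2 Mecom had a UMI in 3 of 16 gated cells, 2 of them without the marker set, and Hlf in 1. The part of the cells with Cdh5 in the Mecom sum was not tested.

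Dntt was among the 12 genes with the largest log2 difference in favour of the gated cells, of those at 50 CPM or more and higher in every library. It stood at 138, 366, 407 and 293 CPM against 0.959, 0, 2.24 and 1.64 (log2 7.06, SE 0.25). Every gated sum lay above every granule-protease-high sum. The UMIs came from 19 of the 104 cells, and in control 2 from 1 of 16. Among the others were Trpc6, Sema3d, B3galt1, Emcn, Cyyr1, Ccser1, Pcdh7, Samd12 and Pdgfd, with log2 differences from 6.31 to 8.43. The 12 genes had 2 to 51 UMIs each in the granule-protease-high cells. Such genes could pass the filter on low counts mostly through the gated cells, so their differences are a description. Emcn, a sialomucin of endothelium and stem cells, was highest in control 2, at 174 CPM against 52.4, 46.4 and 9.65 in the others, the library with 2 of the 4 cells that carried Cdh5. The Cdh5 cells' part in it was not tested.

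Megakaryocyte and erythroid genes were found mainly in the gated cells. The 23 erythroid genes together held 78.8, 96.7, 135 and 86.2 CPM in the granule-protease-high cells, so such genes could pass the filter on low counts mostly where the gated cells were high, and the counts that follow are a description. Of 15 tested megakaryocyte and platelet genes 12 were higher and none lower, and of 9 tested erythroid genes 7 were higher and none lower. Without control 2 more of them passed the filter, and 14 of 16 and 12 of 17 were higher. Rab27b, a small GTPase of platelet granules, stood at 215, 0, 36.6 and 16.1 CPM against at most 0.195 CPM in any granule-protease-high sum. Gata1 stood at 38.6, 0, 69.0 and 16.1 CPM against 0.160, 0, 0.0973 and 0. Neither gene had a UMI in the gated cells of control 2. Pf4 was the most uneven gene of the list: 1157 CPM in control 1 and 8.71, 33.8 and 6.43 in the other libraries, with 48.3% of all its UMIs in 1 cell. Car2 stood at 241, 13.1, 498 and 421 CPM, against 0 to 5.94 CPM.

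Of 12 tested lymphoid-primed genes, 8 were higher and 2 lower. Flt3 stood at 215, 231, 411 and 393 CPM in the gated cells against 14.7, 0, 36.6 and 15.2 (log2 3.73, SE 0.31). Mef2c and Satb1, a transcription factor and a chromatin organiser of lymphoid cells, differed by 2.02 (SE 0.25) and 1.87 (SE 0.18). Ighm, the heavy chain of IgM, was among the lower, by -1.08 (SE 0.26). Flt3 is shared with dendritic cells, and control 2, where 12 of 16 cells were dendritic cell-like, had as much of it as control 1.

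Genes of neutrophil and monocyte priming were lower throughout: 21 of 21, with a median of -3.33, and 14 of 15 tested mature neutrophil genes were lower. As said, the gate makes this likely. The extent can still be read. Ms4a3, a marker of granulocyte and monocyte progenitors, stood at 6.90, 0, 4.22 and 9.65 CPM in the gated cells and 464, 310, 627 and 677 CPM in the granule-protease-high cells. Vcam1, an adhesion molecule, had no UMI in any gated cell and 1650 in the granule-protease-high cells, which with a floor of 3 counts makes it at least 45.0-fold lower. Fcnb, Nrg1, Ly6c2, F13a1, Camp, C3, F10, Sgms2, Chil3 and Trem2 completed the 12 with the largest differences downward. Differences were smaller for Irf8, the factor of monocyte and dendritic fates, at 114, 222, 217 and 132 CPM against 327, 255, 337 and 375 (log2 -1.34, SE 0.25).

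**Figure D3:**
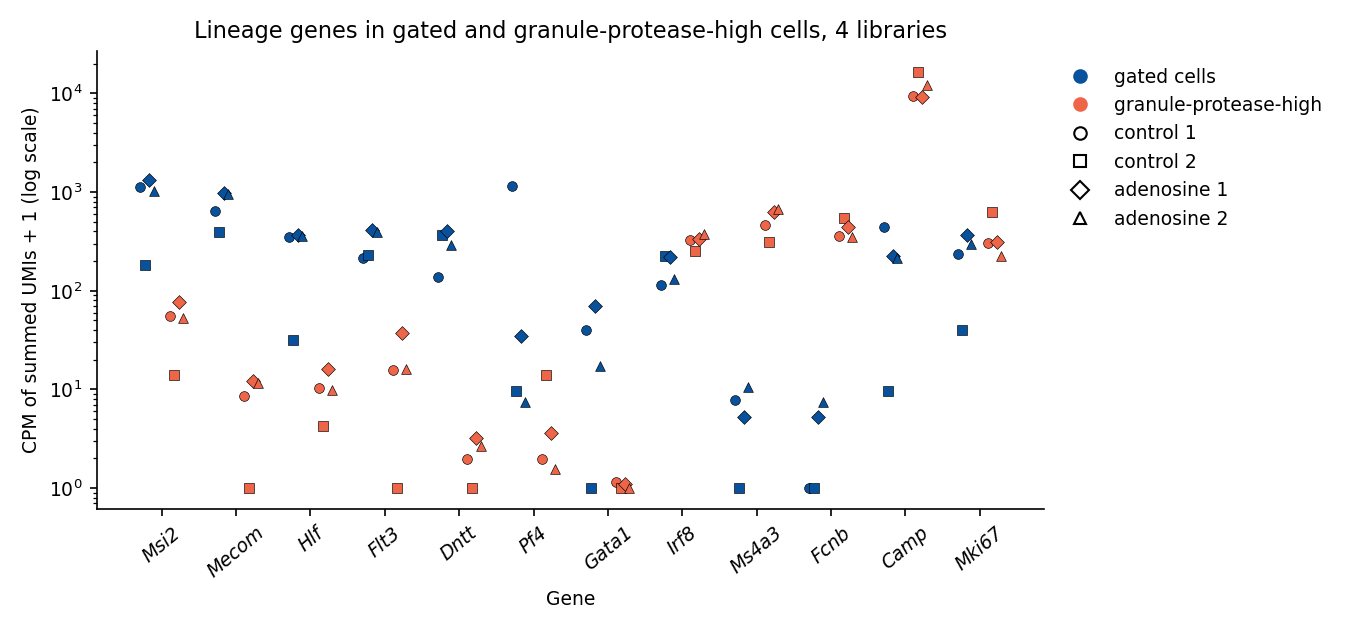
Summed CPM plus 1 (log scale) of 12 lineage genes in the gated cells (blue) and the granule-protease-high cells (orange), 1 point per library by shape. Mecom and Dntt lie higher in all 4 gated sums than in any granule-protease-high sum, Ms4a3, Fcnb and Camp lie lower, and control 2 (squares) is the lowest gated sum for Msi2 and Hlf.

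Cell cycle genes were lower in the gated cells, but not uniformly and with a dependence on scaling. Of 34 genes 18 were lower and none higher, with a median log2 difference of -1.0. The count was 9 with total-count scaling, 15 by DESeq2 and 24 without control 2, with none higher in any of these. Rrm2, the ribonucleotide reductase subunit of S phase, had the largest difference, at -2.49 (SE 0.35), and Cdk1, the kinase of mitotic entry, differed by -1.19 (SE 0.30). Mki67 stood at 236, 39.2, 367 and 299 CPM against 307, 626, 314 and 224 CPM, and its difference of -0.91 (SE 0.50) did not pass. Read at a common depth of 4000 UMIs, 35.7%, 5.80%, 35.9% and 33.8% of gated cells would show Mki67, against 59.2%, 85.6%, 58.4% and 46.3% of granule-protease-high cells. Unthinned, the shares were 54.5%, 12.5%, 52.8% and 42.1% against 88.5%, 100%, 85.6% and 78.8%. Control 2 is the outlying library on both sides. Among cell cycle inhibitors and quiescence factors, Foxo1 was higher by 1.95 (SE 0.28) and Foxo3 by 1.04 (SE 0.20), while Cdkn2d was lower by -1.67 (SE 0.20).

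Of 28 tested receptors for cytokines and the niche, Kit left out as a gate gene, 9 were higher and 10 lower, or 13 and 6 with total-count scaling. Higher were Tek, the receptor of Angpt1, by 5.57 (SE 0.48), Il1r1, the interleukin 1 receptor, by 3.67 (SE 0.43), and Tgfbr2 by 2.28 (SE 0.26), beside Flt3. Lower were receptors for myeloid growth factors, among them Csf2ra by -2.0 (SE 0.28), Csf1r by -1.61 (SE 0.44) and Il3ra by -1.60 (SE 0.34), as well as Cxcr4, the receptor that holds cells in the marrow, by -1.33 (SE 0.31). Tek is also an endothelial gene, and the 21 endothelial genes together held 1250, 2243, 1849 and 1332 CPM in the gated cells against 127, 12.9, 183 and 163. All 15 of them that were tested were higher, which describes genes that passed the filter largely through the gated cells. Of genes tied to aging of stem cells, 8 of 14 were higher and 3 lower, and without control 2 it was 12 of 21 and 4. Aldh1a1, Slamf1, Vwf and Selp were among the higher, with Selp, the platelet adhesion molecule, at 3.91 (SE 0.46). Vwf and Selp are also on the megakaryocyte list and Slamf1 on the stem list. The 24 aging genes together held 910, 1529, 1258 and 656 CPM in the gated cells. In the granule-protease-high cells they held 832, 1090, 1047 and 670 CPM, so the sums differed little and adenosine 2 went the other way. No young animals were in the study.

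Because the treatment was adenosine, its receptors and enzymes were read in the gated cells. None of the 4 receptors was well detected. Adora1 had a UMI in 0 of 104 cells, which allows a share of up to 2.88%, Adora2a had a UMI in 12 cells, and Adora2b and Adora3 in 5 each. Adora2a stood at 8.28, 8.71, 4.22 and 3.22 CPM, near or below the 3-count floors of 4.14, 13.1, 4.22 and 9.65 CPM. Adk, the kinase that clears adenosine inside cells, was found in 71 cells at 246, 82.8, 229 and 161 CPM and was higher than in the granule-protease-high cells by 0.70 (SE 0.18). Entpd1, which removes phosphates from extracellular ATP, stood at 35.9, 39.2, 63.3 and 54.7 CPM, with both adenosine sums above both control sums, and did not pass the test between treatments. Adora2b was lower than in the granule-protease-high cells by -2.13 (SE 0.70, edgeR adjusted p = 0.0351), a call that was lost with total-count scaling and that rests on 5 gated cells.

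The mast cell and basophil limit of the gate had 53, 4, 45 and 42 cells on its far side, and control 2 was left out of that comparison for having too few. Of 6592 genes 1614 differed (edgeR, library as a block), 9.74% higher and 14.7% lower in the gated cells. With total-count scaling the split was 981 higher and 794 lower, against 642 and 972. The mast, basophil and eosinophil genes outside the gate were lower in 12 of 12 tested, a description only, since the other class was chosen on mast cell proteases and 9, 12 and 12 of the 21 list genes had no UMI in the gated cells. Cd200r3, a surface receptor of basophils and mast cells, had no UMI in the gated cells of the 3 libraries and stood at 2177, 1299 and 1246 CPM in the mast/basophil-gated cells, at least 905-fold lower. Hdc, which makes histamine, stood at 8.28, 2.81 and 19.3 CPM against 1834, 1971 and 2057.

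Stem genes were split in this comparison. Of 31 tested, 20 were higher in the gated cells and 3 lower, with a median of 1.33 beside 0.06 over all genes. The 3 lower were Gata2, a factor shared by stem cells and mast cells, by -3.44, Txnip by -1.94 and Runx1 by -1.56. In control 1, adenosine 1 and adenosine 2, the mast/basophil-gated cells held 9621, 10014 and 9431 CPM of the 40 stem genes together. The gated cells held 15733, 14974 and 14182. Meis1, Adgrl4 and Angpt1 together stood at 1619, 1603 and 1757 CPM against 4612, 4193 and 3838. Median depth was 4835, 4394 and 4540 UMIs against 23306, 16589 and 16789. Flt3 with 570 UMIs against 3, Dntt with 480 against 1 and Hdac9 with 415 against 1 were among the 12 genes with the largest difference upward. Ccser1, Il1rapl2, Dlg2, Arap2, Cxcl16, Mmrn1 and Apbb2 had no UMI in the mast/basophil-gated cells and were at least 15.0- to 41.8-fold higher. The 12 genes had 0 to 5 UMIs each in the mast/basophil-gated cells. Such genes could pass the filter on low counts mostly through the gated cells. Their differences, and any overlap with the granule-protease-high comparison, are thus a description. Of the 15 gated cells with Cxcl16, 12 were in the dendritic cell-like cluster. Against both neighbouring classes, then, Ccser1, Samd12 and Dntt were among the 12 genes with the largest difference in favour of the gated cells. Ccser1 was highest in the gated cells of control 2, at 671 CPM against 106, 176 and 154 in the others. Cell cycle genes went the other way from the comparison with granule-protease-high cells, with 7 of 31 higher and none lower (13 higher with total-count scaling).

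Adenosine against control was then tested within the gated cells, 2 libraries against 2. No gene of 7849 passed with edgeR at adjusted p under 0.05 (0% called), the smallest adjusted p was 1.00, and 183 genes had an unadjusted p under 0.05. DESeq2 called 7, all lower with adenosine: Il1b, Cst3, Plbd1, Plet1, Timd4, Piezo2 and Htr7. Plet1, Timd4 and Htr7 are leading genes of the dendritic cell-like cluster, which held 12 cells of control 2 and 3, 3 and 1 of the other libraries. Plet1 stood at 57.9, 113, 0 and 0 CPM from 4 cells, and 61.8% of its UMIs came from 1 cell.

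The count of genes depended on single libraries. Without control 1, so that the control group was control 2 alone, 705 genes passed, 240 higher and 465 lower. Without control 2, 5 genes of 9521 passed (0.0525%): Pf4, Rab27b, Htr7 and Plet1 lower (0.0420%) and Arhgap24 higher (0.0105%) with adenosine. Arhgap24, itself a leading gene of the dendritic cell-like cluster, stood at 0, 414, 97.1 and 32.2 CPM, so its direction turns on which control library is used. Without adenosine 1 or without adenosine 2 none passed with edgeR, and 131 and 90 genes had an unadjusted p under 0.05. In these fits the lone library is assumed to vary like the others. Pf4 (log2 -5.65 without control 2; edgeR adjusted p = 0.000178) rests on 25 cells and for 48.3% on 1 cell of control 1.

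The medians of several lists moved with control 2, and that of the dendritic cell genes changed sign. Of 36 tested stem genes none passed, and their median log2 difference, adenosine over control, was 0.58 beside -0.01 over all genes. Without control 2 it was 0.05 beside 0.02, and with control 2 as the lone control it was 1.32, with 11 of 35 stem genes higher and 1 lower. Dendritic cell genes went from a median of -1.32 over 12 tested genes to 0.53 over 14 without control 2, and cell cycle genes from 0.89 to 0.16. Of the 40 stem genes, 14 were higher in both adenosine sums than in both control sums and none was lower, where 18.8% of all tested genes were higher and 11.0% lower in that way. In control 2, 14 of 16 gated cells lacked the marker set, and no stem gene passed between treatments with all 4 libraries or without that library.

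**Figure D4:**
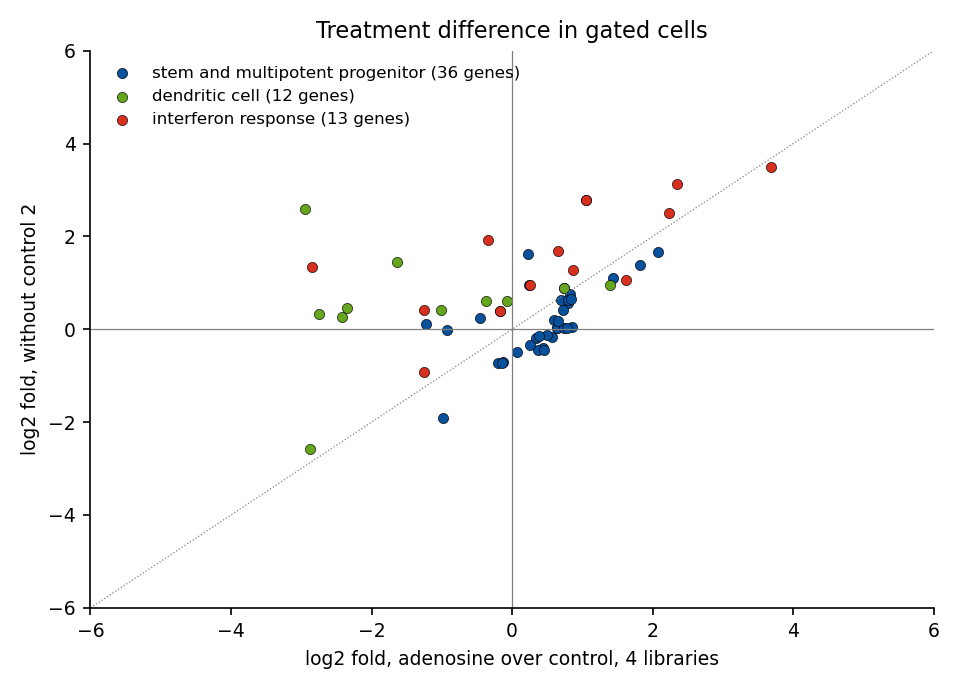
Log2 fold difference between adenosine and control in the gated cells, with all 4 libraries (horizontal axis) and without control 2 (vertical axis), 1 point per gene of 3 lists; the dotted line marks equal values. Stem genes move down (29 of 36 above 0 with 4 libraries, 22 of 36 without control 2) and dendritic cell genes move up (2 of 12 and 11 of 12 above 0).

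The genes with the smallest unadjusted p upward were Klf12, Nrg2, Wipi2 and Parp11. Klf12, a transcriptional repressor, stood at 13.8, 8.71, 74.6 and 80.4 CPM (log2 2.59, SE 0.51). Nrg2, a ligand of ErbB receptors, stood at 6.90, 8.71, 53.5 and 103 CPM (log2 3.25, SE 0.66), from 18 cells. Wipi2, an autophagy protein, stood at 20.7, 21.8, 74.6 and 74.0 CPM (log2 1.71, SE 0.47), and the values within each group lay close together. In all 4 genes both adenosine sums lay above both control sums, and none passed the adjustment with edgeR over 4 libraries (adjusted p = 1.00). The difference between adenosine and control was also compared between the gated and the granule-protease-high cells by an interaction term. None of 9352 genes passed with edgeR (0%), 266 had an unadjusted p under 0.05, and 59 of 12668 passed without control 2.

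Several genes induced by interferons were high in the gated cells of adenosine 2 and not in those of adenosine 1. Iigp1, an interferon-inducible GTPase, stood at 5.52, 0, 16.9 and 418 CPM, and Gbp2, a guanylate-binding protein, at 6.90, 4.36, 19.7 and 154 CPM. Igtp stood at 6.90, 21.8, 12.7 and 125 CPM and Ly6a, the Sca-1 antigen, which is itself induced by interferon, at 33.1, 183, 63.3 and 409 CPM. For each of these 4 genes adenosine 2 was the highest library, and adenosine 1 lay above both controls for Iigp1 and Gbp2 and between or below them for Igtp and Ly6a. Of the 20 genes on the list 12 were highest in adenosine 2 and 8 in control 2, where 22.4% and 25.4% of all tested genes were. The list summed to 937, 9822, 1026 and 3739 CPM in the gated cells and to 745, 1641, 512 and 1615 CPM in the granule-protease-high cells, so control 2 was the highest library by the sum in both classes. None passed between treatments: Gbp2 differed by 3.69 (SE 1.17) over 4 libraries, with an edgeR adjusted p of 1.00.

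In the cells with the marker set, which in control 2 are 2 cells, the sum was highest in adenosine 2. There 14 of the 20 list genes were highest in adenosine 2 and 4 in control 2, where 20.4% and 31.9% of all tested genes were, and the list summed to 932, 1390, 818 and 3170 CPM. Iigp1 was detected in 3 of 29, 0 of 2, 7 of 28 and 16 of 17 of these cells. At a common depth of 4000 UMIs the shares would be 4.34%, 0%, 8.59% and 63.1%, so the order of the libraries with more than 2 cells was the same as without thinning. In the granule-protease-high cells Iigp1 was found in 0 of 314, 0 of 12, 2 of 515 and 108 of 359 cells, which at 4000 UMIs is 13.9% in adenosine 2; the 0 of 314 allows a share of up to 0.955%. The neighbouring class of the same library thus showed the gene too, in a smaller share of its cells at the same depth. Of the 20 list genes, 14 were highest in adenosine 2 and 5 in control 2 in the granule-protease-high cells. In the mast/basophil-gated cells it was 14 and 2, with 4 such cells in control 2. The pattern was thus not particular to the gated cells, and shares over all genes were not counted in those classes. The interaction term for Iigp1, which tests treatment and not the single library, did not pass.

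MHC genes followed. In the cells with the marker set, Cd74, the MHC class II invariant chain, was detected in 12 of 29, 2 of 2, 8 of 28 and 17 of 17 cells, at 42.5, 404, 22.9 and 868 CPM. The class II chain H2-Aa stood at 29.9, 152, 28.6 and 640 CPM, and the class I chain H2-K1 at 921, 834, 860 and 1696 CPM. Of 15 MHC genes 14 were highest in adenosine 2 and 1 in control 2 among these cells, beside the same 20.4% and 31.9%. Ciita had a UMI in 2 of the 17 cells of adenosine 2, and in 0, 0 and 1 of the others. In the granule-protease-high cells 11 of the 15 MHC genes were highest in adenosine 2 and 4 in control 2. In the mast/basophil-gated cells it was 13 and 2, so this too was not particular to the gated cells. Taking all gated cells, Cd74 stood at 1042, 14504, 865 and 1770 CPM, with control 2 far above the rest, where 12 of 16 cells were dendritic cell-like. Scrublet marked 5 of the 19 gated cells of adenosine 2, and their part in this pattern was not tested.

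**Figure D5:**
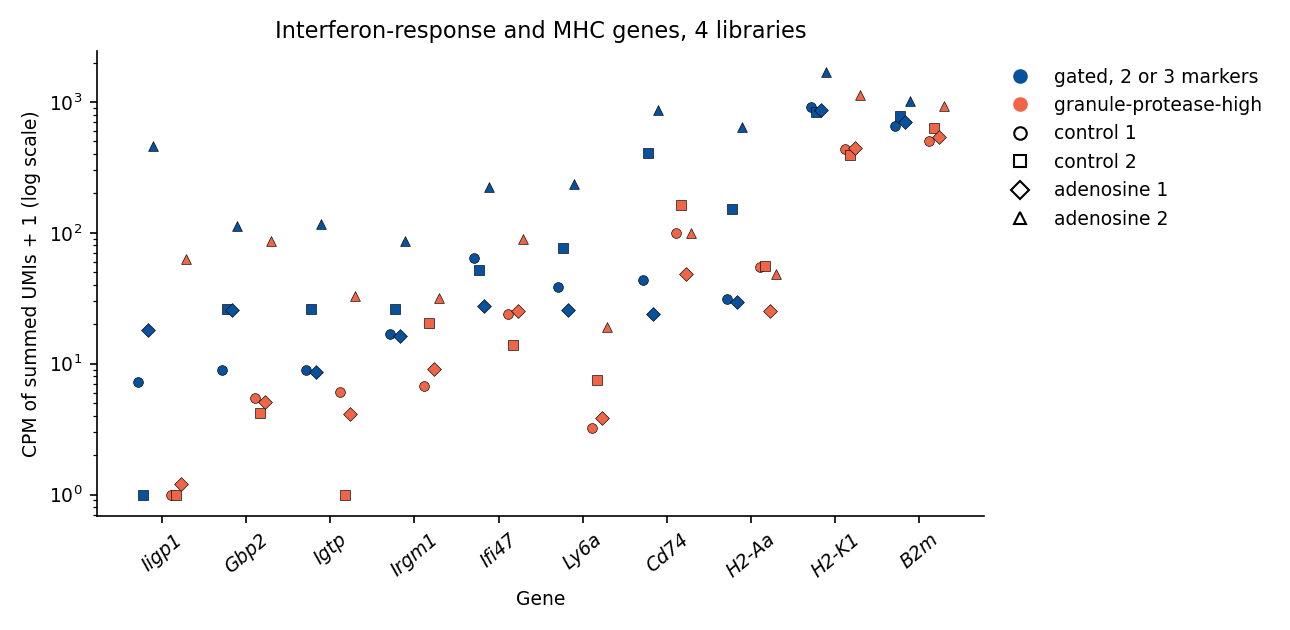
Summed CPM plus 1 (log scale) of interferon-response and MHC genes in gated cells with at least 2 of the 3 further markers (blue) and in granule-protease-high cells (orange), 1 point per library by shape; control 2 rests on 2 gated cells. Adenosine 2 (triangles) is the highest gated sum for all 10 genes shown, and in the granule-protease-high cells it is the highest for all but Cd74 and H2-Aa.

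The sequence before the start site is shown for 3 genes of the interferon list, from RefSeq on build GRCm38.p6. The 250 bases upstream were searched on both strands for GAAA, any 2 bases and GAAA again, the core of the interferon-stimulated response element, and matches are in capitals; overlapping matches run into each other. Of 20 list genes 16 had an entry, and 10 of these (62.5%) held the motif, where 3.46% of all 27025 genes in the table did. The list was drawn up as interferon-response genes, so this share describes the list and not the gated cells. Iigp1 and Ly6a had no entry. Gbp2 (chr3:142620413-142620662, plus strand) and Igtp (chr11:58199306-58199555, plus strand) hold 1 match each and Irgm1 (chr11:48871421-48871670, minus strand) holds 2 overlapping ones. Each match begins 24 to 59 bases before the start site. A match is a description of the letters and does not show binding.
Gbp2: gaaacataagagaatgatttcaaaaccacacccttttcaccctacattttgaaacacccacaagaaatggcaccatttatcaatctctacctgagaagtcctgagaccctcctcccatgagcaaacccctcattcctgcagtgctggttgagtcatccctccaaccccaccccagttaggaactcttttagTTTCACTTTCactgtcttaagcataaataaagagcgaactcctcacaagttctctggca
Igtp: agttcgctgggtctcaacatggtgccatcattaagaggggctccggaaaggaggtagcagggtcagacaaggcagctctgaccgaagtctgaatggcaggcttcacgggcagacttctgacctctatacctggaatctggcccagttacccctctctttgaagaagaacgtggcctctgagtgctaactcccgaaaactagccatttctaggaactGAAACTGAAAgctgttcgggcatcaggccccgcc
Irgm1: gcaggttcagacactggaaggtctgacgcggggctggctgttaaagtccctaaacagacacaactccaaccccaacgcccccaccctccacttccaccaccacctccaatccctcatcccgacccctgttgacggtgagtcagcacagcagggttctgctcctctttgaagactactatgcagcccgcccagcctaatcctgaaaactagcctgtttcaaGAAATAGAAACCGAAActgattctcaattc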

How the data were processed

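Single-cell libraries were made from viable, propidium iodide-sorted callus cells on the 10x Genomics platform, per the labels' protocols. The authors deposited unnormalised UMI counts per gene and cell barcode for each of 4 libraries. Reads were processed with bcl2fastq and Cell Ranger 7.0.0 on mm10, per the submitters' processing notes. Which gene annotation was used, and whether introns were counted, is not given in the sources used here.

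Cells were gated on these counts with Python 3.11.15 and clustered with scanpy 1.11.5 (1500 variable genes, 20 components, resolution 0.8), and doublets were marked with Scrublet and kept. Counts of a class were summed per library. CPM scale that sum to 1000000. Sums were tested with edgeR 4.0.16 (R 4.3.3): TMM scaling, filterByExpr, quasi-likelihood F test, Benjamini-Hochberg threshold 0.05, with the library as a block between classes. DESeq2 1.42.0, other scalings, filters, gates and left-out libraries were alternatives. Scripts were tested on simulated counts.

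Genes named are the 12 per direction with the largest difference among those passing, at 50 CPM or more in the higher class and changed alike in every library (for treatment, the 4 per direction with the lowest unadjusted p), the given markers, up to 6 per list by level and the adenosine genes; other list members and cluster genes were named after their values were seen. The members and lists were chosen with earlier results of these data known. Some genes that this rule names are not reported here.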

Additional observations from a re-analysis of the deposited data

How the results depend on the processing

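The difference in the share of gated cells, adenosine minus control, changed sign to -0.0559 percentage points over cells with fewer than 3 Csf3r UMIs, to -0.0444 after thinning to 2000 UMIs and to -0.0392 with a mitochondrial limit of 5%, and was 0.0997 with at least 2 UMIs of Kit and Cd34; leaving out 1 library gave -0.0788 (without adenosine 1) to 0.111, with -0.0385 without control 2. For adenosine against control within the gated cells, 0 genes passed with edgeR, 7 with DESeq2 and 196 without the filter on low counts, and leaving out 1 library gave 0 to 705. For the difference of that change from the granule-protease-high cells, 0 passed, 37 without the filter and 0 to 188 with 1 library left out (188 without control 1, 59 without control 2). Between gated and granule-protease-high cells 3901 genes passed, 2319 without the library block and 1951 to 5214 with 1 library left out. Between gated and mast/basophil-gated cells 1614 passed, 926 with DESeq2 and 909 to 1568 with 1 library left out (1044 without control 1). The cause of these changes was not tested, but fewer libraries enter when one is left out. With the replicate number as a block 0 genes passed between treatments; the labels do not say that numbers pair libraries, and same-numbered libraries deviated with a correlation of 0.0278. None of the 12 genes per direction between classes or the 4 per direction between treatments changed direction in the alternatives run. The given markers and list genes were not followed in this way. Between treatments, the median log2 difference of Meis1, Adgrl4 and Angpt1 went from 0.46 to -0.41 without control 2. Dendritic cell genes above 0 went from 2 to 11 of 12. Arhgap24, named after its values were seen, turned from lower to higher with adenosine without control 2, where the lone control had no UMI of it. With 16 to 36 gated cells and 229590 to 724904 UMIs per library, a gene under 3 counts, which is 4.14 to 13.1 CPM, could not be told from 0, and 2 libraries per group limit every test between treatments.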
